A study of Rattus norvegicus with 6 samples.

Results

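The genes described are 10 members of the Notch and hedgehog pathways, taken by name: the receptors Notch1 and Notch2, the ligand Jag1, the Notch target genes Hes1, Hey1 and Heyl, the ligand Dhh, its receptor Ptch1, the transducer Smo and the transcription factor Gli1. Probe sets with exactly 1 gene symbol were used, and 9 of the 10 genes had one, each with a single probe set, among 14506 genes in all. Ptch1 had no probe set under its symbol in the annotation used and is not analysed here. The samples were cells of the rat testis in primary culture, labelled Sertoli cells, from 21-day-old rats (3 arrays), an age the labels place after the phase of proliferation, and from 9-day-old rats (3 arrays), which they place within it. Cells of both ages came from digested testes and were grown as a monolayer in DMEM/F12 with 10% fetal bovine serum, and the labels name no other agent. The labels give neither the strain, the genotype nor the number of animals, and they do not say that the arrays of 1 age are separate cultures, so p-values measure the spread between these arrays, which may be technical.

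In Notch signalling, a ligand on 1 cell, such as Jag1, binds a Notch receptor on its neighbour, which is then cut so that its inner part enters the nucleus, joins the DNA-binding protein Rbpj and switches on repressor genes of the Hes and Hey families. In hedgehog signalling, a secreted ligand binds Ptch1, which stops holding back Smo, and Smo then leads the Gli factors to act on their targets, among them Gli1 and Ptch1 themselves. In the mouse testis, Dhh is made by Sertoli cells and acts on the Leydig and peritubular cells around the tubule, while Notch signals pass between germ cells and Sertoli cells.

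The values were log2 values made by RMA, the Affymetrix procedure that corrects background, equalises the arrays and summarises probes per probe set. Array medians over all 29214 probe sets, named or not, lay between 3.78 and 3.87 and the lower quartiles between 2.61 and 2.65. Medians over the 14506 genes were higher, from 4.61 to 4.70, and "array median" below means that of all probe sets. RMA has no zero, and without detection calls it is unknown whether a low value exceeded background, and the number of arrays limits the precision. Differences are 21 days minus 9 days, with a median standard error of 0.112 over all genes. The arrays numbered 3 stood apart from the others at both ages, most plainly in markers of peritubular and smooth muscle cells, and values without them are given where results rest on them. Of the Sertoli cell markers, Wt1 lay between 6.94 and 7.44 and Gata4 between 7.56 and 8.21, whereas 6 of 22 markers, Amh and Fshr among them, lay below the array median in every array. Acta2, the actin of smooth muscle, reached 11.50 to 12.88, and levels of different probe sets are not compared in abundance. In such bulk samples, fewer cells of a type and less RNA per cell cannot be told apart.

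None of the 9 measured members passed an adjusted p under 0.05 in limma, in either direction, and neither did any other of the 14506 genes (0%). At an unadjusted p under 0.05 there was 1 member, Hes1, against 2.97% of all genes. With the replicate number as a block, a fit that compares arrays of equal number, the members at an unadjusted p under 0.05 were Hes1 and Notch1, against 7.73% of all genes, and the lowest adjusted p of a member was 0.55. In that fit, too, 0 genes passed, and the labels do not say what the replicate number stands for. Differences of 7 members were above zero and of 2 below, with a median of 0.18, against 46.5% above zero and a median of -0.0093 over all genes. Without 21-day-old replicate 3 only 4 were above zero and the median was -0.0025.

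**Figure D1:**
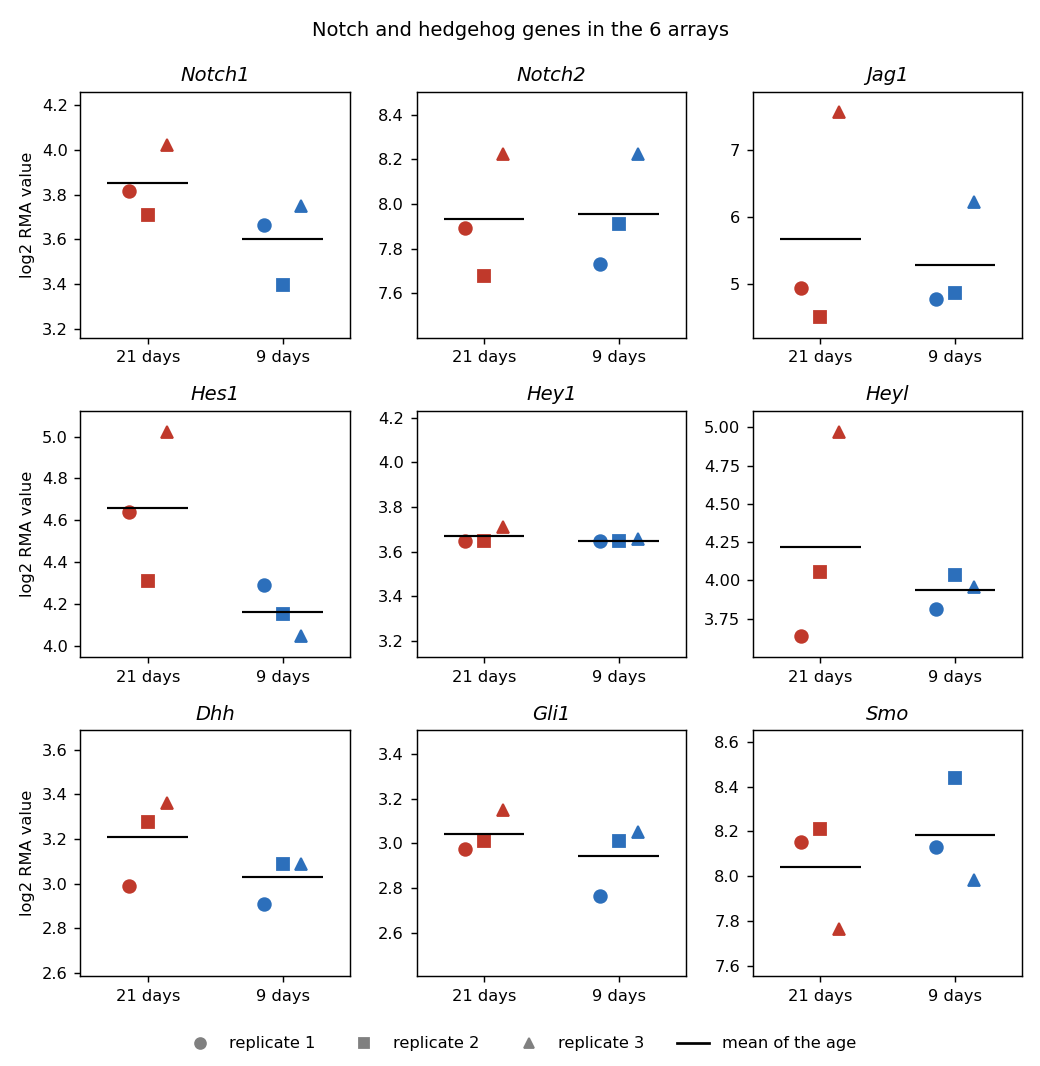
Log2 RMA values (vertical axes) of the 9 measured members in the 6 arrays, 21 days left of 9 days, with symbols for the replicate number and a line at the mean of each age. The values of Hes1 do not overlap between the ages, Jag1 is highest in replicate 3 at both ages, and Hey1 lies between 3.65 and 3.71 throughout.

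The receptor gene Notch1 (probe set 10843793) had 3.82, 3.71 and 4.02 in the 21-day-old arrays, against 3.66, 3.40 and 3.75 in the 9-day-old arrays. The older array was higher in each of the 3 pairs of equal number, by 0.15, 0.31 and 0.28, although the ages overlapped. The difference was 0.25 ± 0.13 (SE, n = 3 each), with a 95% interval from -0.068 to 0.56 and an adjusted p of 1.00 in limma. With the replicate block the interval ran from 0.057 to 0.44, the unadjusted limma p was 0.0207 and the adjusted p was 0.55. The difference was 0.14 without 9-day-old replicate 2 and 0.16 without 21-day-old replicate 3. Notch1 lay below the array median in 4 of the 6 arrays, so its level is low on the scale of these arrays.

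Notch2 (probe set 10817711), the second receptor, had 7.89, 7.68 and 8.23 at 21 days, against 7.73, 7.91 and 8.22 at 9 days. The spread was similar in both ages, with replicate 3 the highest in each. Its difference was -0.024 ± 0.19 (SE, n = 3 each), and the 95% interval, from -0.48 to 0.43, covers levels at 21 days from 0.717 to 1.35 times those at 9 days. With the replicate block the interval ran from -0.28 to 0.23, so neither fit settled the direction. The sign of so small a difference turned without 9-day-old replicate 3 (0.11) or 21-day-old replicate 2 (0.10). It was -0.14 without 9-day-old replicate 1 and -0.17 without 21-day-old replicate 3.

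Jag1 (probe set 10850228) encodes a transmembrane ligand of the Notch receptors and varied most of all members, over a range of 3.06. It had 4.93, 4.51 and 7.57 in the 21-day-old arrays, against 4.77, 4.87 and 6.23 in the 9-day-old arrays. Replicate 3 was far above the other arrays of its age in both, by 2.85 at 21 days and 1.41 at 9 days, and the other 4 arrays lay close together. Of the 14506 genes, Jag1 had the 16th largest such excess at 21 days and the 32nd largest at 9 days. The difference between the ages was 0.38 ± 0.89 (SE, n = 3 each), with a 95% interval from -1.80 to 2.56, and its sign depends on replicate 3. It was -0.57 without 21-day-old replicate 3 and -0.10 without both arrays numbered 3. Without 9-day-old replicate 3 it was 0.85, and without the other single arrays it ran from 0.12 to 0.96. Pairs of equal number differed by 0.16, -0.36 and 1.34, and 2 of 3 were higher at 21 days.

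Hes1, a repressor of the basic helix-loop-helix class and the best known direct target of Notch, was the member whose ages did not overlap. Hes1 (probe set 10754943) had 4.64, 4.31 and 5.02 at 21 days, against 4.29, 4.15 and 4.05 at 9 days. The gap between the ages was small, since the lowest older array, at 4.31, lay just above the highest younger one, at 4.29. Such an absence of overlap with 21 days higher was seen in 2.74% of all genes. The difference was 0.49 ± 0.19 (SE, n = 3 each), a 1.41-fold higher level with a 95% interval from 1.02 to 1.94 times, and the limma p was 0.0404 unadjusted and 1.00 adjusted. Pairs of equal number differed by 0.35, 0.16 and 0.98, all higher at 21 days. Without 21-day-old replicate 3 the difference was 0.31, and without both arrays numbered 3 it was 0.25.

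Promoters of Hes1, Jag1 and Heyl are printed because these 3 members moved most between arrays, over ranges of 0.98, 3.06 and 1.34. Every measured member except Smo was highest in 21-day-old replicate 3. The sequences are those of RefSeq, build GRCr8, from 250 bases before to 50 after the start of the gene, 5′ to 3′ on the strand of the gene, and 8 of the 10 members, Ptch1 included, had one. Capitals mark the binding motif of Rbpj, searched on both strands as TGTGGGAA, CGTGGGAA, TGTGAGAA or CGTGAGAA. The windows are chr11:84212996-84213295 on the minus strand for Hes1, chr3:144894834-144895133 on the minus strand for Jag1 and chr5:140793021-140793320 on the plus strand for Heyl.
Hes1: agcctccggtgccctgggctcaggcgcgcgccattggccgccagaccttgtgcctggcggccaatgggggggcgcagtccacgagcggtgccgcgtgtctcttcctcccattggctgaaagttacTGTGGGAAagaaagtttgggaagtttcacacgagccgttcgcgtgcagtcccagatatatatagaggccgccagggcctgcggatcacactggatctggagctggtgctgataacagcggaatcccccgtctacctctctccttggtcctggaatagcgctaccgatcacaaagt
Jag1: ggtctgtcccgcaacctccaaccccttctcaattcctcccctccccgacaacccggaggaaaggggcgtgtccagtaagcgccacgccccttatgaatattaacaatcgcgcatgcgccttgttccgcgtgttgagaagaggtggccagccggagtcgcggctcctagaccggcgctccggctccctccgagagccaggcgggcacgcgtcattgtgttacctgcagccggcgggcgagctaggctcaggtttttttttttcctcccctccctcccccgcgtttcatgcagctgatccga
Heyl: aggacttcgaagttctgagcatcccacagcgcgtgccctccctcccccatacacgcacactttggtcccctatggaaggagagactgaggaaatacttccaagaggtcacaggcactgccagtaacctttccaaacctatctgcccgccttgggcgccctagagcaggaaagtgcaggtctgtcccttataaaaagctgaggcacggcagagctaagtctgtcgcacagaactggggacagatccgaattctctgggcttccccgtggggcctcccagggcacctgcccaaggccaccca

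Hes1 held the motif once, on the strand of the gene, at positions -125 to -118 from the start (-1 being the last base before it), and was the 1 member of 8 that held it, against 4.18% of 27457 promoters of equal length. The N box, CACNAG, to which Hes proteins bind, was found 4 times in Hes1, on either strand, and in the promoters of 2 of 8 members, Notch1 and Hes1, against 42.8% of all. The 6 letters of an N box overlap none of the Rbpj motifs in these windows. A Gli motif, GACCACCCA, was found on the minus strand in 1 member, Ptch1, at positions -172 to -164, against 0.379% of all promoters. In the windows of Jag1 and Heyl none of these 3 motifs was present. A match of letters is a description of the window and does not show binding.

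Hey1 and Heyl encode repressors related to Hes1, and they had unlike patterns. Hey1 (probe set 10814347) lay at 3.65, 3.65 and 3.71 at 21 days, against 3.65, 3.65 and 3.66 at 9 days. In 4 of the 6 arrays the deposited value was the same to every digit, 3.645588, as was the case in at least 4 arrays for 5.88% of all genes, whose median level of 2.75 lay below the 4.66 of all genes. The Hey1 difference of 0.019 ± 0.057 (SE, n = 3 each) therefore rests on 2 arrays, and it was -0.0033 without 21-day-old replicate 3, 0.030 without either other older array, and below zero after quantile normalization (-0.018) or centring of the arrays (-0.0064). All 6 values were below the array medians, and whether Hey1 was expressed is unknown.

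Heyl (probe set 10871744) had 3.63, 4.06 and 4.97 in the older arrays, against 3.82, 4.03 and 3.96 in the younger ones. A single array, 21-day-old replicate 3, stood 1.13 above the others of its age, the 230th largest such excess among all genes, while 9-day-old replicate 3 exceeded its own by 0.033. The difference of 0.29 ± 0.34 (SE, n = 3 each) had a 95% interval from -0.54 to 1.11. It was 0.58 without 21-day-old replicate 1, 0.12 with array weights, -0.090 without 21-day-old replicate 3 and -0.079 without both arrays numbered 3.

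**Figure D2:**
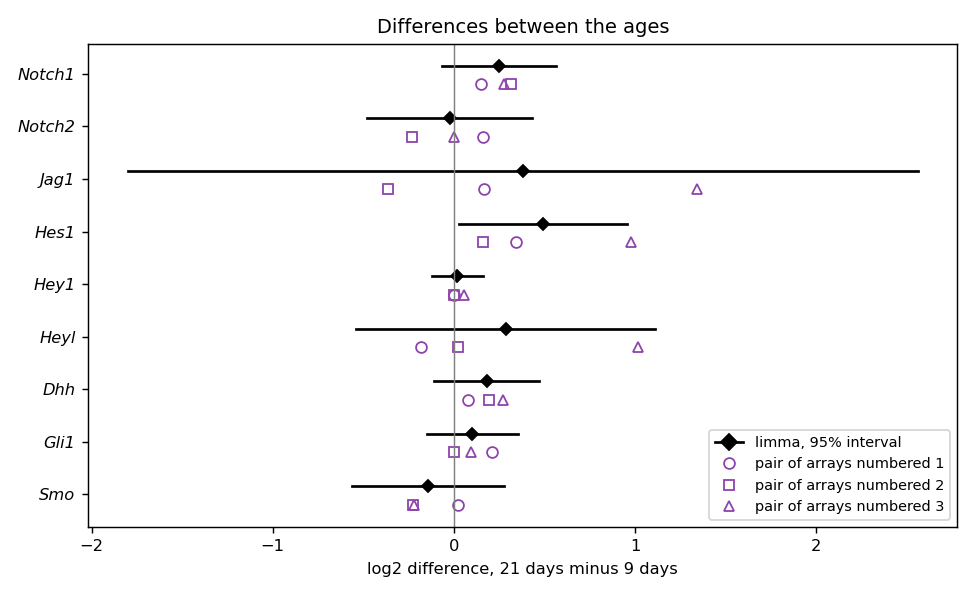
Log2 differences of the 9 measured members, 21 days minus 9 days (horizontal axis). Diamonds and bars show the limma difference and its 95% interval, and open symbols the differences of the 3 pairs of arrays with equal number. The pairs of Notch1, Hes1 and Dhh lie above zero, and the interval of Jag1, from -1.80 to 2.56, is the widest.

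Among the hedgehog genes, the ligand Dhh (probe set 10907056) had 2.99, 3.28 and 3.36 at 21 days, against 2.91, 3.09 and 3.09 at 9 days. Each pair of equal number was higher at 21 days, by 0.080, 0.19 and 0.27, and the ages overlapped. The 3 members higher in all pairs, Notch1, Hes1 and Dhh, compare with 10.7% of all genes. The Dhh difference was 0.18 ± 0.12 (SE, n = 3 each), with a 95% interval from -0.11 to 0.47. It was 0.29 without 21-day-old replicate 1 and 0.11 without 21-day-old replicate 3. With the replicate block, Dhh had an unadjusted limma p of 0.0619. All 6 Dhh values were below the array medians, and whether Dhh was expressed is unknown.

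Smo (probe set 10854208), the membrane protein that passes the signal on, had 8.15, 8.21 and 7.76 at 21 days, against 8.13, 8.44 and 7.98 at 9 days. Replicate 3 was the lowest of each age and differed from the mean of the other arrays of its age by -0.42 at 21 days and -0.30 at 9 days, which is the opposite order to Jag1 and Notch2. The difference was -0.14 ± 0.17 (SE, n = 3 each), with a 95% interval from -0.56 to 0.28, or from 0.678 to 1.21 times the younger level. Pairs of equal number differed by 0.021, -0.23 and -0.22. Without 9-day-old replicate 2 the difference was -0.014 and without 21-day-old replicate 3 it was -0.0025. It was -0.24 without 9-day-old replicate 3 and -0.23 without 21-day-old replicate 2.

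Gli1 (probe set 10903035) is both an activator of hedgehog targets and a target itself, and it is a usual readout of the pathway. It had 2.97, 3.01 and 3.15 in the 21-day-old arrays, against 2.76, 3.01 and 3.05 in the 9-day-old arrays. The ages overlapped, and all 6 values were below the array medians. The difference was 0.10 ± 0.10 (SE, n = 3 each), with a 95% interval from -0.15 to 0.35. It was 0.013 without 9-day-old replicate 1, 0.16 without 9-day-old replicate 3 and 0.050 without 21-day-old replicate 3.

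Several members differed between the replicate numbers within an age. Replicate 3 exceeded the mean of the other arrays of its age at both ages for 7 of the 9 members, most for Jag1 and least for Hey1, with 0.067 at 21 days and 0.0099 at 9 days. Of the other members, Smo was lower in replicate 3 at both ages, and Hes1 was higher by 0.55 at 21 days with the same contrast at -0.18 at 9 days. In the same arrays the 9 peritubular and smooth muscle markers, all of them highest in replicate 3 at both ages, had mean levels of 8.17, 7.61 and 9.44 at 21 days, against 8.27, 8.45 and 9.74 at 9 days. Cnn1, a calponin of smooth muscle, and Tagln, which binds actin, were among them. The 22 Sertoli cell markers had mean levels of 5.11, 5.36 and 5.96 at 21 days, against 4.92, 5.04 and 5.02 at 9 days, and replicate 3 was the highest of its age for 17 of them at 21 days and 9 of them at 9 days. Jag1 was thus high in the 2 arrays with high smooth muscle markers. Hes1 and Heyl, like every measured member except Smo, were highest in 21-day-old replicate 3. The means of both the smooth muscle and the Sertoli cell markers were high in that array. In 21-day-old replicates 1 and 2, Hes1 had 4.64 and 4.31, the opposite order to the Sertoli cell means. Heyl had 3.63 and 4.06 there, the same order as those means. The part of these cell types in the values of the members was not tested.

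The means of the other lists of markers differed less between the replicate numbers than did those of the smooth muscle markers. The mean of 9 endothelial markers ranged from 3.35 to 3.67 over the 6 arrays, with 6 of the 9 below the array median throughout. Cdh5, the cadherin of endothelial cells, had the highest mean of these, at 4.85 at 21 days and 5.03 at 9 days. Leydig cell markers ranged from 4.42 to 4.61 in mean level, and 5 of 8, such as the steroid enzyme gene Cyp11a1, were below the median in every array, although Star, the carrier of cholesterol into mitochondria, lay between 10.84 and 11.28. The means ranged from 3.31 to 3.43 for macrophage markers, from 8.54 to 8.91 for fibroblast markers, whose members went different ways, and from 3.30 to 3.61 for germ cell markers. Of the 12 germ cell markers, 8 were below the median in every array. In 21-day-old replicate 3, 10 were highest of their age, and the mean of the list was 3.61 against 3.30 and 3.33 in the other older arrays. Hes1 and Heyl were highest in that array too, as was every measured member except Smo. At 9 days Hes1 was highest in replicate 1, at 4.29. The germ cell mean was highest in replicate 2 at that age, at 3.42, as was Heyl, at 4.03. At both ages Heyl had the same order of arrays as the germ cell means. The part of germ cells in these values was not tested. Among the 9 fibroblast markers, replicate 3 minus the mean of the other arrays of its age was -1.52 at 21 days and -0.72 at 9 days for Dcn, a proteoglycan gene of connective tissue. The same contrast was -1.92 and -0.79 for its relative Lum, against 0.62 and 0.63 for the collagen gene Col1a2. The growth factor receptor genes Pdgfra and Pdgfrb were lower at 21 days without overlap. Their differences were -0.73 ± 0.18 and -0.61 ± 0.12 (SE, n = 3 each), with an adjusted p of 1.00 for each in limma. Of the 9 fibroblast markers, however, 6 were lower at 21 days and 3 higher. Thy1 had the largest difference of the list, 1.03 ± 0.40 (SE, n = 3 each), with overlapping ages.

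**Figure D3:**
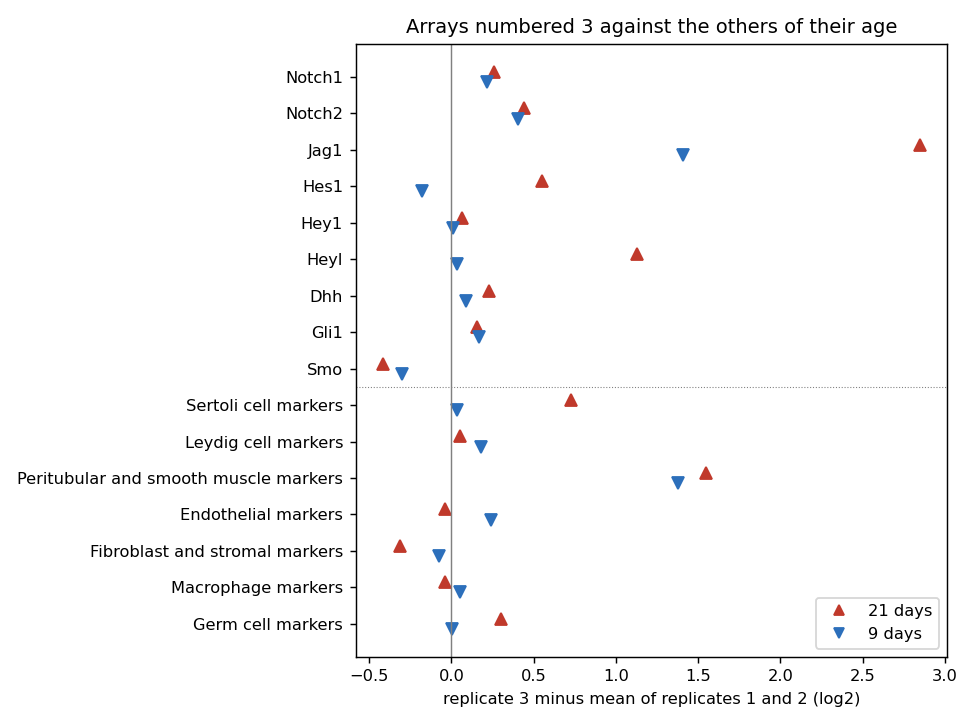
Replicate 3 minus the mean of replicates 1 and 2 on the log2 scale (horizontal axis) for each member and for the mean of each list of cell type markers, at 21 days and at 9 days. Jag1, at 2.85 and 1.41, lies to the right at both ages, as do the peritubular and smooth muscle markers at 1.55 and 1.37, while Heyl, at 1.13 and 0.033, does so at 21 days.

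Of 95 other genes of these pathways, 71 had a probe set, and 0 of them passed in limma in either direction, with or without the replicate block. Their median difference was -0.014, with 30 above zero and 41 below, against a median of -0.0093 and 46.5% above zero over all genes. In limma 3 of the 71 had an unadjusted p under 0.05, against 2.97% of all genes, and 8 did with the replicate block, against 7.73%. In all 3 pairs of equal number, 10 were higher at 21 days, against 10.7% of all genes, and 11 were lower, against 14.4%. Ages did not overlap for 1 of them with 21 days higher, Ihh, against 2.74% of all genes. Its lowest older value, 3.4394, lay just above its highest younger one, 3.4362. With 21 days lower, the ages did not overlap for 4, against 2.98% of all genes. Those 4 were Dlk1, Gpc3, Gli3 and Poglut1, which adds glucose to the Notch receptor and is named because they were so few, with a difference of -0.13 ± 0.081 (SE). The fibroblast markers Pdgfra and Pdgfrb had the same order of ages, whereas Thy1 of that list was higher at 21 days on average. The part of fibroblasts in these values was not tested.

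Other receptors and ligands of Notch had a median difference of 0.027, with 6 of 11 above zero, or 0.14 without 9-day-old replicate 3, 0.012 without 21-day-old replicate 2, 0.0064 without 9-day-old replicate 2 and -0.0016 without 9-day-old replicate 1. Dlk1, an imprinted relative of the ligands that is thought to hold Notch back, had 5.54, 6.51 and 5.74 at 21 days, against 6.57, 6.80 and 6.76 at 9 days. Every older array lay below every younger one. The difference was -0.78 ± 0.26 (SE, n = 3 each), or 0.583 times the younger level, with an unadjusted p of 0.0236 and an adjusted p of 1.00 in limma. In the replicate block fit the adjusted p was 0.412. The microfibril genes Mfap5 and Mfap2, whose products can bind Jag1, differed by 0.31 ± 0.17 and -0.20 ± 0.14 (SE). Without 9-day-old replicate 2 Mfap5 differed by 0.17. Mfap2 differed by -0.089 without 21-day-old replicate 1, by -0.31 without 9-day-old replicate 1 and by -0.13 without 9-day-old replicate 3.

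Genes that process or modify Notch had a median difference of -0.00090, with 9 of 19 above zero, a value that ran from -0.036 (7 above zero, without 9-day-old replicate 3) to 0.034 (10 above zero, without 9-day-old replicate 2) when single arrays were left out. Those with the largest differences were Dtx4, a ubiquitin ligase of the Deltex family (0.23 ± 0.29, SE), the protease gene Furin (0.20 ± 0.19) and Psen2, a catalytic subunit of the secretase that cuts the receptor (0.19 ± 0.14). Nuclear partners and further targets had a median of -0.0015, with 6 of 14 above zero, which ran from -0.018 (without 9-day-old replicate 1) to 0.039 (8 above zero, without 21-day-old replicate 1). Here the acetyltransferase gene Ep300 differed by -0.14 ± 0.18 (SE), the coactivator gene Maml3 by 0.14 ± 0.17 and Nrarp, a target that limits Notch, by -0.10 ± 0.18. None of these 6 differences reached 1.5 times its standard error in the fit without the block. With the replicate block the standard errors were smaller, at 0.086 for Dtx4, 0.13 for Furin, 0.10 for Psen2 and 0.080 for Maml3, so that these 4 did reach it, and Dtx4 had an unadjusted limma p of 0.0474 and an adjusted p of 0.639. Left-out single arrays moved each by over 1.5 times: Dtx4 ran from 0.035 (without 9-day-old replicate 1) to 0.50 (without 21-day-old replicate 1), Furin from 0.10 (without 21-day-old replicate 1) to 0.37 (without 21-day-old replicate 3) and Psen2 from 0.096 (without 9-day-old replicate 3) to 0.31 (without 9-day-old replicate 2). Maml3 ran from 0.038 (without 9-day-old replicate 1) to 0.30 (without 21-day-old replicate 1), while Ep300 turned to 0.027 without 21-day-old replicate 2 and Nrarp to 0.061 without 21-day-old replicate 1.

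**Figure D4:**
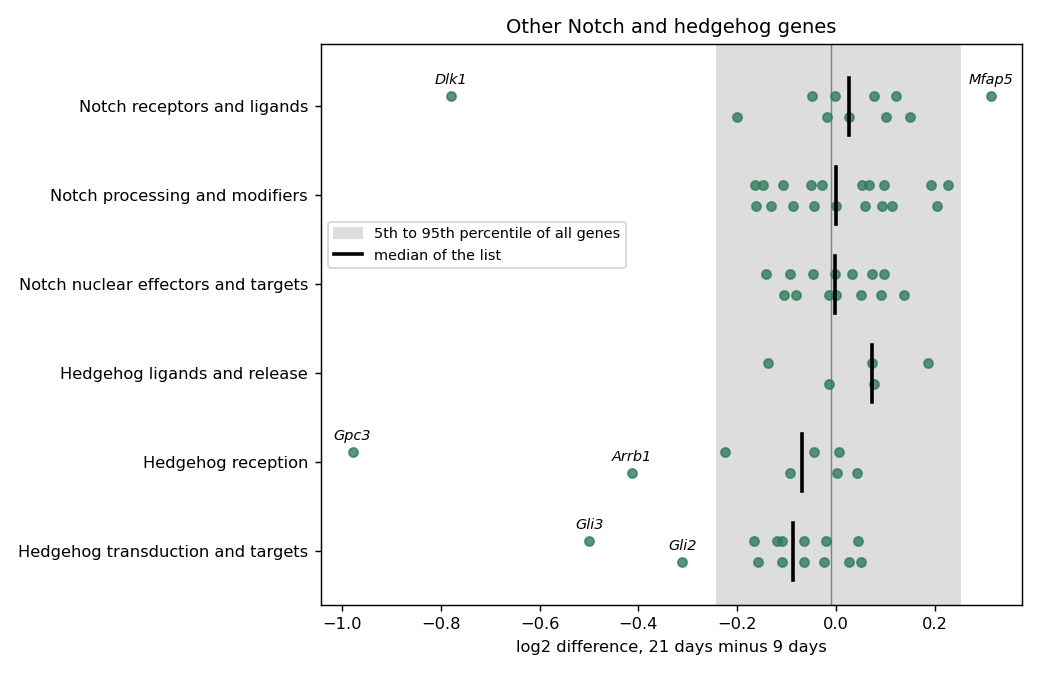
Log2 differences of the 71 other pathway genes, 21 days minus 9 days (horizontal axis), in 6 lists, with the median of each list as a black bar and the range from the 5th to the 95th percentile of all genes, -0.24 to 0.25, in grey. Gpc3, Dlk1, Gli3, Arrb1 and Gli2 lie left of the grey range and Mfap5 lies right of it.

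Further hedgehog genes had 9 of 27 differences above zero and a median of -0.064, against the -0.0093 of all genes. Among ligands and release factors, Ihh differed by 0.19 ± 0.12 (SE), which was 0.060 when 9-day-old replicate 2 was left out, and the release factors Disp1 and Disp2 by -0.14 ± 0.18 and 0.077 ± 0.069. Disp1 turned to 0.050 without 21-day-old replicate 1 and Disp2 ran from 0.048 to 0.12 without single arrays. Ihh and Disp2 lay below the array median in all 6 arrays. In the group of genes that act with the receptor, the glypican gene Gpc3, which binds hedgehog ligands and holds the pathway back in the mouse, had 4.26, 4.55 and 3.49 at 21 days, against 4.86, 5.17 and 5.21 at 9 days. The older arrays were all below the younger ones. The difference was -0.98 ± 0.28 (SE, n = 3 each), with an unadjusted p of 0.0138 and an adjusted p of 1.00 in limma, and -0.61 without both arrays numbered 3. The arrestin genes Arrb1 and Arrb2, whose products bind Smo, differed by -0.41 ± 0.17 and -0.23 ± 0.12 (SE). Without 21-day-old replicate 3 they differed by -0.25 and -0.13, and Arrb2 differed by -0.14 without 9-day-old replicate 2.

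The transcription factor Gli3, which acts mainly as the repressor of the pathway, had 5.84, 5.50 and 6.13 at 21 days, against 6.21, 6.16 and 6.60 at 9 days. All 3 older arrays were below the younger ones, though 21-day-old replicate 3, at 6.13, lay close to the lowest younger value, 6.16. Pairs of equal number differed by -0.37, -0.66 and -0.46, and the difference of -0.50 ± 0.20 (SE, n = 3 each), or 0.707 times the younger level, had an unadjusted p of 0.0462 and an adjusted p of 1.00 in limma. With the replicate block the standard error was 0.086 and the adjusted p 0.39. Gli2, the main activator, had 4.28, 4.33 and 4.63 at 21 days, against 4.36, 4.58 and 5.23 at 9 days, a difference of -0.31 ± 0.24 (SE). It was -0.058 without 9-day-old replicate 3, -0.49 without 9-day-old replicate 1 and -0.17 without both arrays numbered 3. Gli2 was lower at 21 days in all 3 pairs of equal number, as were Gli3 and 14.4% of all genes. Gli1 was above its younger partner in 2 pairs and equal to it in the other, to every deposited digit (3.009874). All 6 Gli1 values lay below the array medians, so its direction beside that of Gli2 and Gli3 is uncertain. Btrc, which encodes the ubiquitin ligase subunit that marks Gli proteins for processing, differed by -0.17 ± 0.096 (SE), a value of -0.087 once 9-day-old replicate 2 was left out. Of the 14 genes of transduction, 11 were below zero, with a median of -0.087, and 6 were below zero, with a median of 0.020, without 21-day-old replicate 2. The median of this list was -0.14 without 21-day-old replicate 3 and -0.048 without 9-day-old replicate 3. For ligands and release factors it ran from -0.0054 (without 9-day-old replicate 1) to 0.12 (without 21-day-old replicate 1), and for genes that act with the receptor from -0.10 (without 9-day-old replicate 1) to -0.045 (without 9-day-old replicate 2).

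The 2 members that varied most over the 6 arrays were set against all other genes by their centred profiles, each gene with its own mean taken off. The genes nearest to Jag1 by root mean square difference were Slco3a1, an organic anion transporter gene (0.184), Pdlim3, which encodes a protein of actin filaments in muscle (0.204), Zdhhc2, a palmitoyltransferase gene (0.239), the growth factor gene Tgfb2 (0.275) and the sialyltransferase gene St8sia2 (0.303). Pdlim3, for example, had 6.48, 6.26 and 9.04 at 21 days, against 6.77, 6.77 and 7.74 at 9 days, so that it too was highest in replicate 3 of both ages. The nearest to Heyl were Tex101, listed here among the germ cell markers (0.0803), the ceruloplasmin gene Cp (0.0893), the nuclear receptor gene Nr0b2 (0.106), Arap2 (0.111) and the transcription factor gene Foxa2 (0.112). Cp had 6.22, 6.56 and 7.32 at 21 days, against 6.17, 6.45 and 6.32 at 9 days, with the single high array, 21-day-old replicate 3, that Heyl also showed. Likeness over 6 arrays is a description and carries no test.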

How the data were processed

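Gene expression was measured on 6 Affymetrix arrays of total RNA. The deposited values are log2 values per probe set, which the authors obtained by RMA according to the submitters' processing notes, with no version or settings stated there. Of 29214 probe sets, 15310 carried 1 gene symbol in the platform annotation, and the one with the highest mean was used per gene, leaving 14506 genes. Entrez numbers of 15279 were found in the RefSeq table and changed 0 symbols.

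The ages were compared in limma 3.58.1 (R 4.3.3) by lmFit and eBayes over all genes, without covariates or filter, with Benjamini-Hochberg adjustment and a threshold of 0.05. The fit was tested on simulated data. The members, lists and tests were chosen with earlier results of these data known. Named were all members, the 3 largest differences of each list of other pathway genes where none passed, markers out of the 3 of highest mean in each list, and the 5 genes nearest to each of the 2 most variable members. Wt1, Amh, Fshr, Cyp11a1, Lum, Pdgfra, Pdgfrb, Thy1 and Poglut1 were named in addition, after their values had been seen. An alternative fit treated the replicate numbers, taken from the titles, as pairs, although the labels do not say what they stand for. Deviations of arrays from the means of their ages correlated across genes at 0.439, 0.549 and 0.673 between arrays numbered 1, 2 and 3. Arrays of unlike number were not compared in this way, so these correlations cannot show that the numbers mark true pairs. Other alternatives changed the filter, scaling, probe sets, variance model, weights and arrays. Figures were drawn with matplotlib 3.10.9.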

Additional observations from a re-analysis of the deposited data

How the results depend on the processing

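No member and no other gene of the pathways passed in any of the 16 alternatives. The count over all genes was also 0 in each planned one. At an unadjusted limma p under 0.05 there were 1122 genes with the replicate block, against 431 in the fit reported. Without the block there were 304 to 628 of the 14506 genes. Where genes were filtered by mean there were 189 of 7253 and 315 of 10880. With the replicate block, which changed no call, the lowest adjusted p over all genes was 0.1315. A fit with the block and a robust trended prior, chosen after seeing the data, called 6 genes, none of them of these pathways. Of the 27 pathway differences followed, 24 moved by over 1.5 times or turned without 1 array, all 9 members among them. Signs turned for Notch2 after quantile normalization (0.0068), without 9-day-old replicate 3 (0.1104) and without 21-day-old replicate 2 (0.1027); for Jag1 without 21-day-old replicate 3 (-0.5691) and without both arrays numbered 3 (-0.1001); for Hey1 after quantile normalization (-0.0176), centring (-0.0064) and without 21-day-old replicate 3 (-0.0033); for Heyl without 21-day-old replicate 3 (-0.0898) and both arrays numbered 3 (-0.079); for Ep300 without 21-day-old replicate 2 (0.0272); and for Nrarp (0.0607) and Disp1 (0.0499) without 21-day-old replicate 1. Over single arrays left out, values ran from -0.17 to 0.1104 for Notch2, -0.5691 to 0.962 for Jag1, -0.0033 to 0.0301 for Hey1, -0.0898 to 0.5789 for Heyl, -0.2671 to 0.0272 for Ep300, -0.2561 to 0.0607 for Nrarp and -0.2723 to 0.0499 for Disp1. The cause was not tested. Keeping the 7253 genes of highest mean left 3 members, so the others have no value there. Without detection calls, signal over background sets an unknown limit for members of low level. Dhh, Gli1 and Hey1 lay below the array median in all 6 arrays, Notch1 in 4 and Heyl in 1. That median covers all probe sets, and the medians over genes were higher, from 4.61 to 4.70. Notch1 lay below the medians over genes throughout. Hes1 and Heyl were above them in 21-day-old replicate 3 alone.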
